A study of Oryza sativa with 8 samples.

Results

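The 93-11 regions described here were accessible in both libraries of unstressed seedlings and carried no peak in either library of heat-stressed seedlings. They were found by pooling the ATAC-seq peaks of the 4 93-11 libraries on chromosomes 1 to 12, merging peaks that overlapped or touched, and keeping merged regions with a peak in both Normal lists and in neither heat stress (HS) list. This rule gave 5756 Normal-only regions, 10.4% of the 55565 merged regions of 93-11. The whole series, with the regions of the second cultivar Nipponbare (Nip), held 105171 merged regions. The regions were chosen by the presence or absence of called peaks in these same 4 lists, so their number is a description and was given no test.

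93-11 is an indica rice cultivar. HS seedlings were 3 weeks old and were held at 45 °C for 36 h, with relative humidity above 80% and light at 60 to 80 μmol per m2 and second. Normal seedlings were of the same age, and all seedlings were grown in culture solution with 10 h of light and 14 h of dark, the light then being 800 μmol per m2 and second. What light and humidity the Normal seedlings had in the treatment hours was not stated, so the effects of heat, light and humidity cannot be told apart. Each group had 2 libraries, called biological replicates in the study's methods. Nuclei came from the whole aerial part of the seedlings, and a change within cells cannot be told apart from a change in the mixture of cells.

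ATAC-seq uses the Tn5 transposase, which inserts sequencing adapters where DNA is not wrapped tightly in nucleosomes. In plants such open sites lie mostly at promoters and other regulatory DNA, where transcription factors displace nucleosomes, and a site can open or close as factors bind or leave. Heat stress in plants activates heat shock transcription factors, which bind promoters of chaperone genes, while many genes of growth and photosynthesis are expressed less. A peak list records only sites that passed the caller's threshold, so a region without a peak in a list may still hold signal below that threshold.

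The lists gave the position of each peak and its −log10 p, the strength of evidence that the reads piled up above background, which rises with sequencing depth. Depth is not recorded in the lists. In its place the background rate of each library, the number of fragments expected to overlap a base by chance, was recovered from the peak values. It was 4.41 and 4.66 in HS replicates 1 and 2, against 6.11 and 6.67 in Normal replicates 1 and 2, and the groups did not overlap. The HS lists held 24940 and 22684 peaks on the 12 chromosomes, against 31584 and 30632 in the Normal lists. Background and condition therefore cannot be told apart in a count of lost regions. Strength is given below as fold over background, the pileup implied by the −log10 p divided by the background rate, to put libraries of different background on the same scale. At the same fold a library of lower background has a lower −log10 p. Peaks of equal fold were therefore not equally likely to be called in HS and Normal lists. Between 29.4% and 37.7% of the values in a list lay exactly on the tail of this background. The other values were scored against a background that was not recovered. Where that background was higher, the fold given here understates the pileup over the library's rate. It then overstates the pileup over the background used for the call, so these folds are not conservative.

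The number of Normal-only regions was read against regions with a peak in exactly 1 Normal and 1 HS library, a pairing that no condition links. The 4 mixed pairs held 1214 regions (Normal replicate 1 with HS replicate 1), 971 (Normal replicate 1 with HS replicate 2), 1113 (Normal replicate 2 with HS replicate 1) and 984 (Normal replicate 2 with HS replicate 2), or 2.18%, 1.75%, 2% and 1.77% of all regions. The number of Normal-only regions was 5.38 times the mean of the mixed pairs, and 4.74 times the largest of them. The regions open only in the 2 HS libraries numbered 1760, or 3.17% of all regions, and the ratio of Normal-only to HS-only regions was 3.27. Both ratios depended on the settings. The ratio to the mean mixed pair was 7.07 with the 10000 strongest peaks of each list and 7.35 among peaks of at least 4 times the background. With 1 library left out it was 3.60 to 4.67. The ratio of Normal-only to HS-only regions also depended on the threshold. It was 1.44 among peaks of at least 4 times the background, where 1844 regions were Normal-only and 1281 HS-only, and 1.62 when every list was cut to the length of the shortest. It was 0.892 without HS replicate 2 and 1.13 without HS replicate 1, where 1 HS list alone made a region HS-only, and 4.98 and 5.34 without Normal replicates 1 and 2, where 1 Normal list alone made a region Normal-only.

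**Figure D1:**
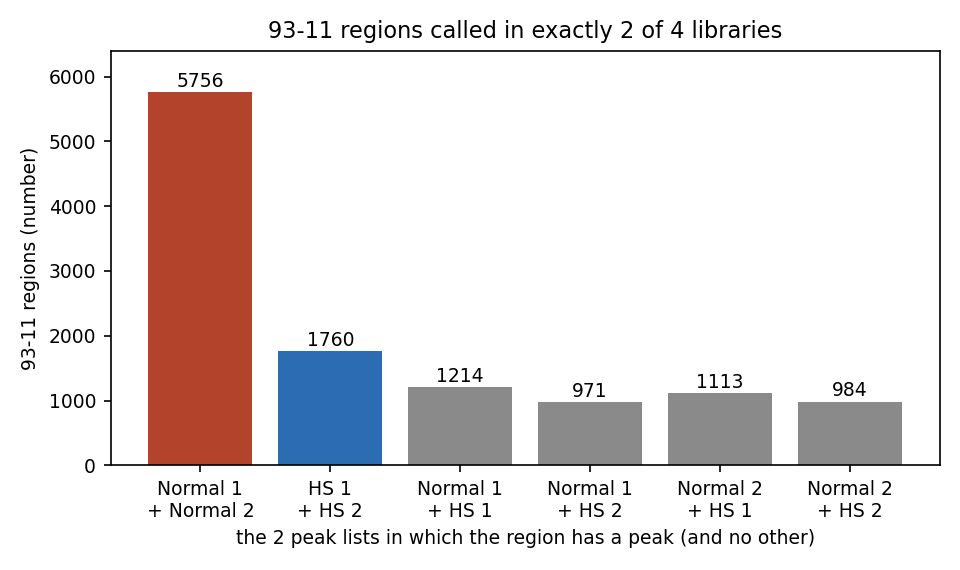
Number of 93-11 regions (vertical axis) with a peak in exactly 2 of the 4 libraries, by the pair of libraries (horizontal axis). The Normal pair (red) holds 5756 regions, the HS pair (blue) 1760 and the 4 mixed pairs (grey) 971 to 1214.

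Agreement between the Normal replicates was higher than that between the HS replicates at regions without a peak in the other condition. Of the 22214 regions with a Normal peak and no HS peak, 25.9% were in both Normal lists, and of the 13516 regions with an HS peak and no Normal peak, 13% were in both HS lists. These shares come from the same calls that chose the members. The Normal lists were also longer and of higher background, and the part of this in the shares was not tested. Seen from the other side, 19323 regions had a peak in both Normal lists. Of these, 29.8% had no HS peak, 21.0% had a peak in 1 HS list and 49.2% had a peak in both. The counterpart was smaller, since 13.3% of the 13249 regions with a peak in both HS lists had no Normal peak.

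Normal-only regions were short sites, as a rule 1 peak per list. In 5662 of the 5756 (98.4%) each Normal list held 1 peak, and no region held more than 3 peaks of a list. The merged regions were 134 to 2424 bp long with a median of 350 bp, and together covered 2.23 Mb, 11.9% of the length of all 93-11 regions. Their median peak width was 258 bp in Normal replicate 1 and 262 bp in Normal replicate 2. Peaks of the same 2 lists were narrower in mixed-pair regions, at 217 to 219 bp, and wider in regions present in all 4 lists, at 402 and 419 bp. The median widths of the 2 Normal libraries lay within 4 bp of each other in the Normal-only regions, and no test was made on 2 libraries. This order of widths follows at least in part from the rule. Members had to be called in both Normal lists, mixed-pair regions were missed by 1 of them, and wider peaks were also stronger.

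In strength, Normal-only regions lay in the middle of their lists. The median peak stood at percentile 52.6 of the list of Normal replicate 1 and at percentile 50.6 of that of replicate 2. Mixed-pair regions lay lower in the same lists, at percentiles 27.2 to 30.7, and regions of all 4 libraries higher, at percentiles 82.4 and 81.9. As fold over background, the median Normal-only peak was at 3.62 and 3.51 times the background in replicates 1 and 2, the mixed-pair medians at 3.00 to 3.11, and the medians of regions in all 4 lists at 5.46 and 5.29. This order follows from the rule, since members had to be called in both Normal lists and mixed-pair regions missed by 1 of them. HS-only regions showed the same step in the HS lists, at percentiles 42.7 and 38.5 in HS replicates 1 and 2, against 31.8 to 37.1 for mixed-pair regions. The middle 80% of Normal-only regions spanned 2.88 to 4.94 times the background in replicate 1 and 2.79 to 4.79 in replicate 2.

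Most Normal-only regions reached a fold at which the HS lists held peaks elsewhere. The lowest fold called was 2.67 in HS replicate 1 and 2.64 in HS replicate 2, against 2.34 and 2.28 in Normal replicates 1 and 2. Both Normal peaks reached 2.67 in 91.6% of the regions, and 483 had at least 1 Normal peak below it. In 15 regions both peaks were below it. Reaching such a fold was not particular to members. Of the 19323 regions with both Normal peaks, 186 had a lower fold below 2.5 and 3462 had one of 2.5 to 3. Members were 106 and 1738 of these. Strong members were few. Both folds were at least 3 in 3912 regions (68.0%), at least 4 in 1048 (18.2%), at least 5 in 198 (3.44%), at least 6 in 34 and at least 8 in 2. The highest value of the lower fold was 8.35. Among all 19323 regions with both Normal peaks, 8959 had both folds at least 4, so members were the weaker part of that set. The lower fold was 5 to 6 in 2000 of the 19323, 6 to 8 in 1844 and 8 or more in 1461. The lowest fold in a list is that of its weakest called peak, and not every pileup of that fold was called.

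The share of Normal regions without an HS peak fell with their strength. Among regions with a peak in both Normal lists, 50.2% (95% interval 48.5% to 51.9%) had no HS peak where the lower Normal fold was 2.5 to 3, 38.7% (36.9% to 40.5%) at 3.5 to 4, 23.3% (21.9% to 24.7%) at 4 to 5, 8.20% (7.03% to 9.49%) at 5 to 6 and 1.74% (1.19% to 2.44%) at 6 to 8. The intervals are exact Clopper-Pearson intervals and cover counting error over regions only. The counterpart, regions with a peak in both HS lists and no Normal peak, fell in the same way at a lower level. By the lower HS fold it was 41.0% (36.8% to 45.3%) at 2.5 to 3, 18.0% (16.6% to 19.6%) at 3.5 to 4, 8.30% (7.36% to 9.31%) at 4 to 5, 2.24% (1.59% to 3.07%) at 5 to 6 and 1.05% (0.614% to 1.68%) at 6 to 8. At 8 times and above the order of the shares was the other way round, with 2 of 1461 Normal regions (0.137%) without an HS peak and 3 of 1112 HS regions (0.270%) without a Normal peak. These shares come from the same called peaks that chose the members, and regions are not replicates of a condition, so they describe the 4 lists and do not test a difference between HS and Normal. Over all regions with both folds at or above 4, 1048 of 8959 (11.7%) had no HS peak, against 321 of 7591 (4.23%) HS regions with no Normal peak.

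**Figure D2:**
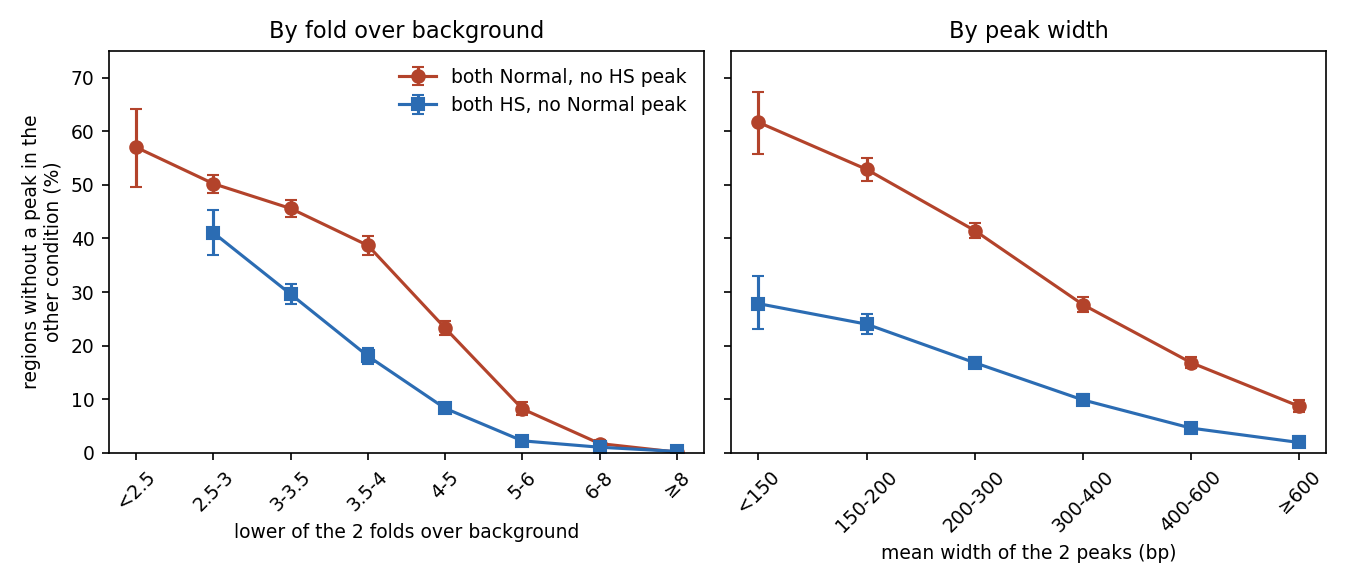
Share of 93-11 regions without a peak in either library of the other condition (vertical axis, percent), by the lower fold over background of their 2 peaks (left) and by the mean width of the 2 peaks in bp (right). Red circles are regions with both Normal peaks and blue squares regions with both HS peaks, and bars are exact 95% intervals over regions. Red lies above blue from 2.5 to 8 times the background and at every width plotted, below it at 8 times and above (0.137% and 0.270%), and both fall towards strong and wide peaks.

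Peak width followed the same pattern. Of the regions with both Normal peaks, 52.9% had no HS peak where the mean Normal width was 150 to 200 bp, 41.5% at 200 to 300 bp, 27.7% at 300 to 400 bp, 16.8% at 400 to 600 bp and 8.68% at 600 bp or more. The HS counterpart ran from 24.0% at 150 to 200 bp to 1.93% at 600 bp or more. Narrow Normal sites were thus the most often lost and wide ones the least, in these lists. Width and strength move together, and they were not separated.

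Whether peaks went missing more often between conditions than between replicates was read list by list. Among regions at 4 to 5 times the background in Normal replicate 1, 49.3% were absent from HS replicate 1 and 50.2% from HS replicate 2, against 12.6% absent from Normal replicate 2. For Normal replicate 2, 45.9% and 46.2% were absent from HS replicates 1 and 2, against 11.2% from Normal replicate 1. At this fold, absence was therefore about 4 times as frequent in the HS lists as in the other Normal list. The factor was smaller at lower folds, where the median member lay. Among Normal replicate 1 regions at 3.5 to 4 times the background, 62.5% and 63.9% were absent from HS replicates 1 and 2. From Normal replicate 2, 33.2% were absent. At 2.5 to 3 times the shares were 78.9% and 80.9%, against 74.0%. The HS replicates also missed each other's regions more often than the Normal replicates did. At 4 to 5 times the background, 36.7% of HS replicate 1 regions were absent from HS replicate 2 and 32.4% of HS replicate 2 regions from HS replicate 1. In the opposite direction, the regions of HS replicate 1 at this fold were absent from Normal replicates 1 and 2 at 33.7% and 34.7%, and those of HS replicate 2 at 29.8% and 30.7%, values close to those in the other HS list at this fold. At 6 to 8 times the background, 8.12% to 10.6% of Normal regions were absent from an HS list, 3.55% to 4.04% of HS regions from a Normal list, 1.93% and 2.32% of HS regions from the other HS list and 0.363% and 0.373% of Normal regions from the other Normal list. The lower background rate of the HS libraries goes with these values, and its part in them was not tested.

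**Figure D3:**
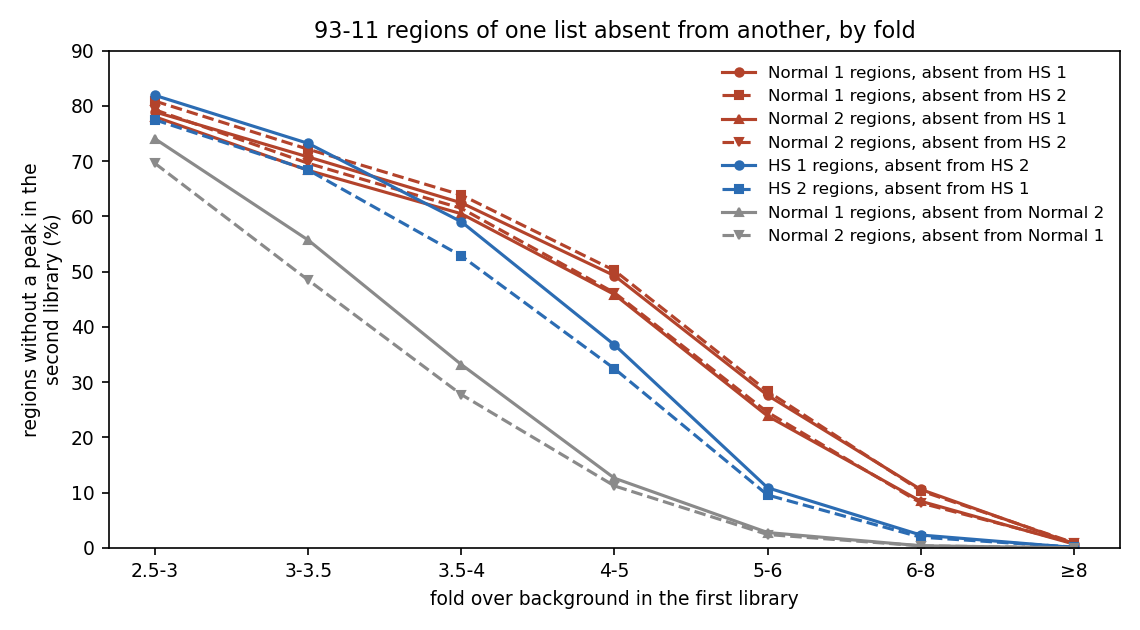
Share of the 93-11 regions of 1 library without a peak in a second library (vertical axis, percent), by fold over background in the first (horizontal axis). Red lines are Normal regions sought in an HS list, blue lines HS regions in the other HS list and grey lines Normal regions in the other Normal list. At 4 to 5 times the background the red lines lie at 45.9% to 50.2%, the blue at 32.4% and 36.7% and the grey at 11.2% and 12.6%.

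Members had to have joined peaks in both Normal lists, so agreement of the Normal replicates on their position was set by the rule. The overlap and folds below describe the members only, and no other class was set beside them. The overlap of the strongest peaks of the 2 lists, as a share of the stretch they span together, had a median of 60.5%, and it was at least 50% in 3765 members (65.4%). In 3 members the strongest peaks of the 2 lists did not overlap and were joined by a further peak. The folds of the 2 replicates lay within a factor of 1.5 of each other in 5535 members (96.2%), a share that follows in part from the narrow range of their folds. The percentile ranks of the 2 replicates had a Spearman correlation of 0.52 over the 5756 members and 0.88 over the 9503 regions of all 4 lists. These are correlations across sites of the same pair of libraries, where the members span a narrower range of strength, and are given as a description. The median difference in percentile was 14.2, and 10% of members differed by more than 37.7.

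Positions below are on the 93-11 sequences as the lists name them, counted from 1. The genome build was not stated, and no gene annotation or sequence of it was used here, so the regions carry no gene names. The strongest member, by the lower of its 2 percentile ranks, was at chr2:11615938-11616255. Its peaks reached a −log10 p of 33.5 and 32.0 in Normal replicates 1 and 2, at 9.01 and 8.32 times the background, and the nearest HS peak was 1775 bp away. The next was a narrow site at chr4:11999702-11999856, at 8.35 and 8.39 times the background, with no HS peak within 17109 bp. These 2 were the members with both folds at or above 8, and each lay at percentile 94.5 or above in both Normal lists with nothing called there in either HS list.

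The other 8 of the 10 strongest members ranked between percentiles 90.2 and 96.5 in both lists. A site at chr1:20420701-20421449 had 7.54 and 7.55 times the background in replicates 1 and 2 and stood 11022 bp from an HS peak. Then came chr4:520880-521081 at 7.53 and 9.29 times, chr8:7797879-7798941 at 7.44 and 7.30 times, and chr2:14460807-14460982 at 7.56 and 7.04 times. The site on chromosome 8 was the widest of the 10, with peaks of 855 and 1063 bp, whereas those on chromosomes 4 and 2 were narrower than the median member. The last 4 lay at chr3:3170326-3171080 (7.53 and 6.89 times the background), chr11:21966763-21966959 (7.62 and 6.77), chr8:11693246-11693801 (7.91 and 6.75) and chr4:31165448-31165825 (7.12 and 6.61). Among the 10, the nearest HS peak was 608 bp away at the chromosome 3 site and at least 1246 bp away at the others.

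On the remaining chromosomes the strongest member was weaker. It lay at chr5:13506761-13507136 at 6.92 and 6.47 times the background in Normal replicates 1 and 2, at chr6:762837-763248 at 6.62 and 6.81, at chr7:22843278-22843739 at 6.48 and 6.02, and at chr9:15641881-15642681 at 6.92 and 6.08. The last were at chr10:21801456-21801858 at 6.16 and 6.03, and at chr12:5311086-5311461 at 5.56 and 6.0. The chromosome 6 site had an HS peak 393 bp away in replicate 1 and 416 bp away in replicate 2, so both HS libraries were accessible beside it. The longest members were not the strongest. The 3 longest were at chr2:26650884-26653307 (2424 bp, 3 peaks in each Normal list), chr10:20255695-20257310 (1616 bp, 2 peaks in each) and chr1:9968632-9970231 (1600 bp), at 3.66 to 4.90 times the background.

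The edges of the rule were soft. The 5 members nearest an HS peak stood 1 to 5 bp from a peak of HS replicate 1. The closest, at chr3:17660869-17661213, had 3.27 and 3.15 times the background in Normal replicates 1 and 2 and a peak of HS replicate 1 at a distance of 1 bp, while the nearest peak of HS replicate 2 was 14827 bp away. The others were at chr1:13947548-13947774, chr4:17708007-17708535, chr7:5592963-5593302 and chr12:3363750-3364345. In all, 51 members had an HS peak within 50 bp, and 75 regions just outside the rule shared under 50 bp with the Normal peaks through their 1 HS peak.

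The weakest members were barely called in either Normal list. At chr1:12631717-12631995 the −log10 p was 3.09 and 3.17 in Normal replicates 1 and 2, at percentiles 0.291 and 0.326. The other 4 of the 5 weakest, at chr1:38376168-38376448, chr9:7520076-7520317, chr2:14247486-14247621 and chr4:1452597-1452816, had a −log10 p of 3.37 to 3.69. Just outside the rule, 4064 regions had both Normal peaks and 1 HS peak. Their HS peak stood at a median percentile of 47.6 of its list and 3.86 times the background. The weakest such HS peaks had a −log10 p of 3.10 to 3.18, at 2.64 to 2.72 times the background, the first of them at chr11:28325717-28326199.

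In a few members the Normal replicates were far apart. On chr6:29187560-29188102 the −log10 p was 3.5 in replicate 1 and 13.5 in replicate 2, and at chr5:19521565-19521876 it was 11.9 and 3.13. Such members were high in 1 Normal library and near the calling threshold in the other. The other 3 of the 5 least alike lay at chr4:18758518-18758942, chr6:18221784-18222033 and chr7:3651427-3651807.

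Most members lay kilobases from the nearest site still called upon HS. The distance to the nearest HS peak had a median of 3664 bp, with quartiles of 1315 and 7484 bp and a maximum of 66701 bp. An HS peak lay within 200 bp of 191 members (3.32%), within 500 bp of 543 (9.43%) and within 1000 bp of 1143 (19.9%). Members were beside an HS peak less frequently than the regions called in Normal replicate 1 alone or Normal replicate 2 alone, of which 7.37% and 6.80% had an HS peak within 200 bp and 23.8% and 24.5% within 1000 bp. At 5000 bp these classes were alike, with 60.0% of members and 60.6% and 60.3% of the regions of replicates 1 and 2 alone within that distance. Members were also longer, with a median of 350 bp. In regions of replicates 1 and 2 alone the median peak widths were 188 and 191 bp. The part of length in the difference at short distances was not tested. HS-only regions were closer to a Normal peak, with a median of 2003 bp and 31.8% within 1000 bp, and the Normal lists they were measured against were longer. The 1048 members with both folds at or above 4 had a median distance of 3911 bp and median widths of 324 and 341 bp in replicates 1 and 2, and the weaker members a median distance of 3620 bp.

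**Figure D4:**
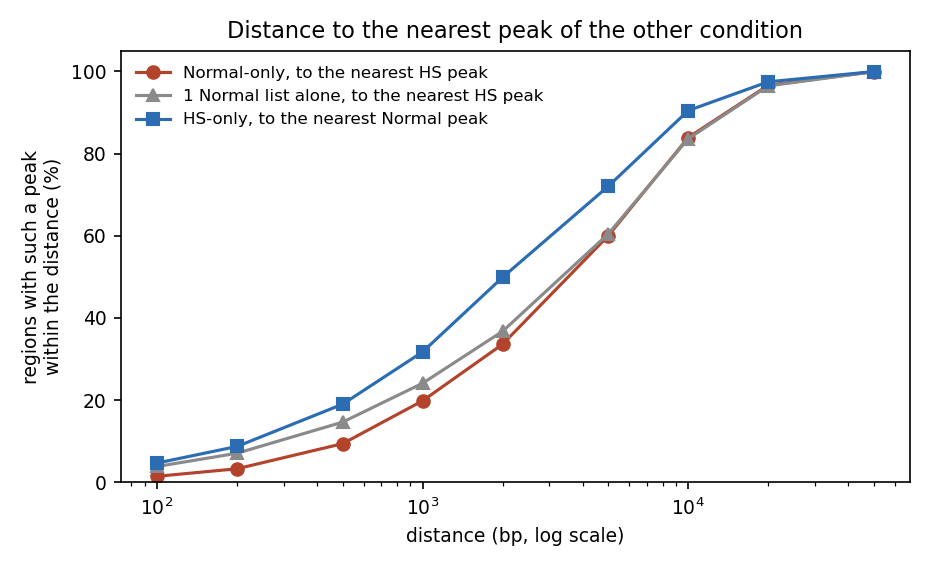
Share of 93-11 regions (vertical axis, percent) with a peak of the other condition within a given distance (horizontal axis, bp, log scale). Normal-only regions (red) had an HS peak within 1000 bp in 19.9% of cases, regions of 1 Normal list alone (grey) in 24.1%, and HS-only regions (blue) had a Normal peak within that distance in 31.8%.

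Members stood nearer to sites of all 4 lists than the mixed pairs did. The median distance to the nearest region with a peak in all 4 lists was 12934 bp for Normal-only regions, against 15632 to 17338 bp for the 4 mixed pairs, and it was 13411 bp for HS-only regions. Of the neighbouring regions on either side of a member, 18.0% were present in all 4 lists, against 19.1% for HS-only regions, 13.8% to 16.2% for the mixed pairs and 17.1% of all regions. The members' share was thus near that of all regions. A neighbour of a member was itself Normal-only in 12.8% of cases, against 10.4% of all regions. Other classes also had neighbours of their own class more often than their share of all regions, at 3.98% against 3.17% for HS-only regions and 23.9% against 17.1% for regions in all 4 lists, so this was not particular to the members. No test was made of these shares.

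Of the 5756 members, 4407 (76.6%) had no Normal-only region as a direct neighbour, 1030 lay in 515 runs of 2, 237 in 79 runs of 3 and 52 in 13 runs of 4. The longest runs held 5 members, and there were 6 of them. The run at chr1:29007314-29020909 spanned 13596 bp, and others spanned 23118 to 27226 bp. By windows of 100 kb, 5 windows held 8 members each, the most of any. They were chr1:32500001-32600000, chr2:9100001-9200000, chr2:31400001-31500000, chr3:8000001-8100000 and chr4:27300001-27400000. In the chromosome 2 window from 9100001, 8 of 17 regions were Normal-only and none was HS-only, and over the 5 windows, chosen for their number of members, 1 region was HS-only.

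The regions were found on every chromosome. Normal-only regions made up 8.54% of the regions of chromosome 11 to 11.8% of those of chromosome 3, and exceeded the mean mixed pair by a factor of 3.78 on chromosome 11 to 6.67 on chromosome 3. They outnumbered the largest mixed pair and the HS-only regions on 12 of 12 chromosomes, with a ratio to HS-only regions of 2.61 on chromosome 8 to 4.2 on chromosome 3. All chromosomes were read from the same 4 lists that chose the members, so these counts repeat 1 contrast and are not independent of each other. Chromosomes 1, 2 and 3 held the highest shares and chromosomes 10 and 11 the lowest. This order was not seen when members were counted among regions with both Normal peaks. Of these, 28.5% on chromosome 8 to 32.6% on chromosome 12 had no HS peak, with 29.0% and 29.1% on chromosomes 1 and 3 and 30.8% and 32.1% on chromosomes 10 and 11. Among regions with both folds at or above 4, the share without an HS peak was 9.98% on chromosome 8 to 15.8% on chromosome 12, above the HS counterpart of 3.46% to 5.42% on every chromosome.

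**Figure D5:**
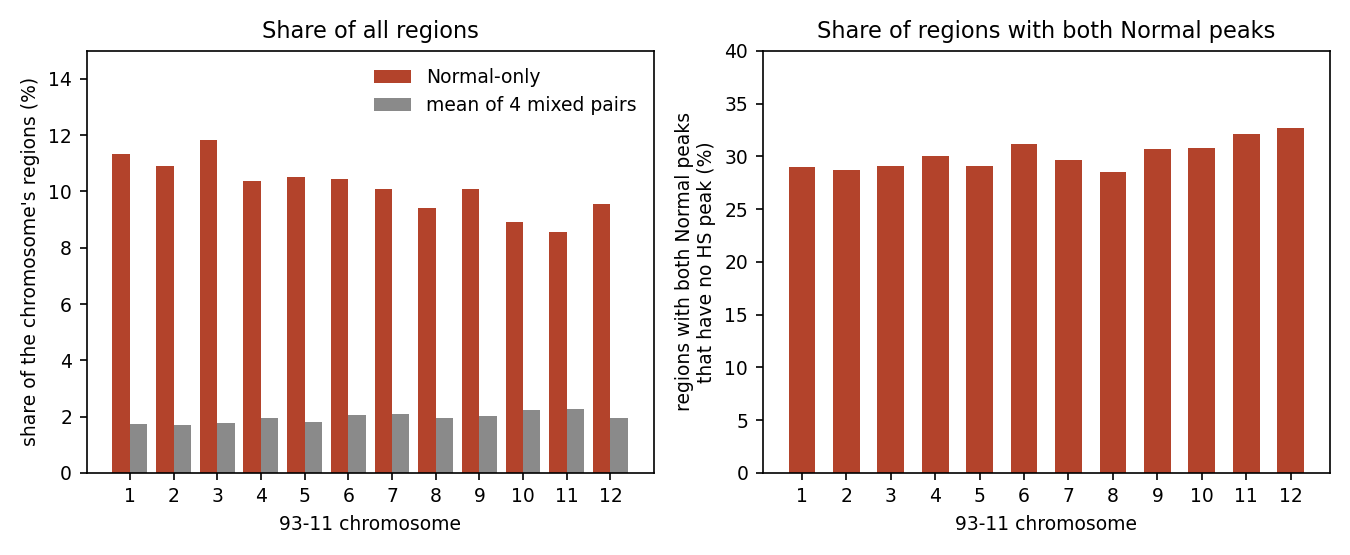
Left, Normal-only regions (red) and the mean of the 4 mixed pairs (grey) as a share of all 93-11 regions of each chromosome (vertical axis, percent); right, Normal-only regions as a share of the regions with both Normal peaks. Red lies between 8.54% and 11.8% on the left, above grey on all 12 chromosomes, and between 28.5% and 32.6% on the right.

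Along the chromosomes the share of members went with the density of accessible sites. Among the 392 windows of 1 Mb with at least 20 regions, the share of Normal-only regions had a median of 10.3%, with 80% of windows between 5.85% and 13.9%, and members outnumbered HS-only regions in 378 windows. In the 131 windows with the fewest regions (35 to 130 each) 8.83% of regions were Normal-only, in the 130 middle windows 10.3%, and in the 131 windows with the most (152 to 220) 11.4%. The mean mixed pair moved the other way, at 2.2%, 1.97% and 1.71% of regions. As a share of the regions with both Normal peaks, members also moved the other way, at 32.9%, 31.2% and 27.6%. Sites with both Normal peaks numbered 9259 of 22358 regions in the densest windows and 3982 of 14843 in the sparsest, so the base of the second share changed with density as well. Windows were ranked by their number of regions, so a window cut short by a chromosome end, such as chr2:38000001-39000000 with 69 regions, counted as sparse.

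Of the 5 windows richest in members, 3 lay at an end of their chromosome. The highest share was at chr2:38000001-39000000, where 16 of 69 regions (23.2%) were Normal-only and none was HS-only. The last peak of chromosome 2 ended at 38.4 Mb, so peaks filled only part of this window and its share rests on few regions. Next were chr3:1-1000000 (30 of 148, against 1 HS-only region), chr6:3000001-4000000 (27 of 136, against 3), chr3:12000001-13000000 (34 of 185, against 5) and chr4:35000001-36000000 (27 of 150, against 4). These windows were chosen for their share of Normal-only regions, and few HS-only regions beside them follow in part from that choice. Over all regions the ratio of Normal-only to HS-only regions was 3.27. At the other end, chr11:8000001-9000000 held 1 Normal-only region of 102, against 5 HS-only regions.

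Within 1 Mb of a chromosome end, taken as the start of the sequence or the end of its last peak, 478 of 3690 regions (13%, 95% interval 11.9% to 14.1%) were Normal-only. The share was 11.4% (10.4% to 12.5%) at 1 to 2 Mb, 10.8% (10.2% to 11.4%) at 2 to 5 Mb, 10.1% (9.67% to 10.6%) at 5 to 10 Mb and 9.70% (9.29% to 10.1%) beyond 10 Mb. It decreased steadily from the ends inward. The 4 mixed pairs together went the other way, from 6.12% within 1 Mb to 8.46% beyond 10 Mb. Of the regions with both Normal peaks, 32.8% (30.4% to 35.2%) within 1 Mb and 32.3% (31.1% to 33.5%) beyond 10 Mb had no HS peak, against 27.1% (25.8% to 28.5%) at 2 to 5 Mb, so on this scale the loss was highest at the ends and in the interior.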

How the data were processed

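ATAC-seq peaks of 4 93-11 libraries were analysed, 2 HS and 2 Normal, with groups from the sample titles; the 4 Nip lists were used only to count regions. Per the study's methods, the authors trimmed reads (Cutadapt), mapped them (Bowtie2), removed low-quality, improper, organelle and duplicate reads, and called narrow peaks per library with MACS2. The submitters' processing notes instead name BWA 0.7.10-r789, SAMtools 0.1.19, deepTools 2.0 and MACS2 2.1.1. The genome build and any Tn5 shift were not given in the sources used here. The value deposited by the authors has no header and was read as a −log10 p-value, not adjusted.

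The background rate is the Poisson rate whose upper tails at whole pileups lie closest to the 12 most frequent values of a list. The mean misfit was at most 3.36e-06. Regions were merged at 0 bp, and each was described by its strongest peak per list. Regions named are the 10 strongest by the lower of 2 percentile ranks, the strongest per chromosome, the 3 longest, the 5 nearest an HS peak, the 5 weakest, the 5 least alike between replicates, and the 5 richest windows of 100 kb and of 1 Mb (with at least 20 regions). The longest runs and the poorest window were named after their values were seen. The members and measures were chosen with earlier results of these data known. An exact permutation test on 2 against 2 libraries cannot go below p = 0.333, and none was made. Scripts (Python 3.11.15, pandas 2.3.3, scipy 1.17.1) were tested on simulated data. Alternatives covered the joining rule, the peak threshold, the sequences used and each replicate left out.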

Additional observations from a re-analysis of the deposited data

How the results depend on the processing

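The number of Normal-only regions stayed within 1.5 times the reported 5756 when 50 bp of overlap was needed to join peaks (5664), when peaks up to 200 bp apart were joined, with 1 lowest −log10 p for every list, with lists of equal length (3920), at 3 times the background (4041) and with all sequences (5788). After the data had been seen, members were also required to have no HS peak within 500 bp (5213) or 1000 bp (4613). With the 10000 strongest peaks of each list the number was 1508, and at 4 times the background 1844. The ratio to the mean mixed pair was 7.07 and 7.35 under these 2 settings. The ratio to HS-only regions was 1.31 with the 10000 strongest peaks, 1.62 with lists of equal length, and 1.73 and 1.44 at 3 and 4 times the background. In that order of settings the median width, reported as a mean of 260 bp over the Normal libraries, was 373, 285.5, 284.5 and 356.75 bp (254.5 bp with peaks up to 200 bp apart joined), the share of members at or above the lowest HS fold was 95.4%, 94.5%, 99.95% and 100%, and the median distance to an HS peak was 9266.5, 4059.5, 4099 and 7769 bp. The shares of 99.95% and 100% follow from the settings, which kept only peaks of at least 3 and 4 times the background. Raising the threshold also removes HS peaks, so that a region can become Normal-only.

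Leaving out 1 library drops the demand for a replicate in its condition. The number was 7718 without HS replicate 2, 7848 without HS replicate 1, 13908 without Normal replicate 1 and 14626 without Normal replicate 2. Over these 4, the ratio to the mean mixed pair was 3.60 to 4.67, and the median width 209 to 267.5 bp. The share at or above the lowest HS fold was 87.2% to 93.4%, and the median distance 3509.5 to 5520.5 bp. The ratio to HS-only regions was 0.892 to 5.34. It was below 1 without HS replicate 2, where Normal-only regions still needed 2 lists and HS-only regions 1, was 1.13 without HS replicate 1, and was 4.98 without Normal replicate 1. No paired analysis was possible because the results come from counts of regions with no test.

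Depth is unknown and cannot be told apart from condition, and a missing HS peak does not show that signal was absent. Only 2 libraries per condition were available, and intervals over regions do not measure the spread between seedlings.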

Other observations

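On 93-11 sequences outside the 12 chromosomes, 714 merged regions were found. Of these, 32 were Normal-only and 20 HS-only.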
